A study of Mus musculus with 8 samples.

Results

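Fc receptors bind the constant part of antibodies and so tie antibody back to the cells of the immune system. The genes described here are the 9 Fc receptor and Fc receptor-like genes Fcgr2b, Fcgr1, Fcgr3, Fcgr4, Fcer2a, Fcmr, Fcrl1, Fcrla and Fcrlb, out of 19937 genes measured. They were taken by symbol from the array annotation, with earlier results of this comparison known. The probe set of a gene was to be chosen by its mean level over the 8 arrays, but each member had 1 probe set annotated to it alone, so the level decided nothing. They were compared in splenic B cells of adult Sca1-HGAL mice and of their wild-type littermates, called Control. The Sca1-HGAL mice carry the human gene HGAL (GCET2), an adaptor of germinal centre B cells, driven by the promoter of Sca1, which is active in blood stem cells and in many blood lineages and not in B cells alone. The labels call this allele knock-in in one place and transgenic in another. Both groups were on a CBAxC57BL/6J background, and spleen cells carrying CD22 together with B220 were purified by flow cytometry. Total RNA of 4 Sca1-HGAL and 4 Control samples was measured on Affymetrix mouse gene expression arrays, 1 array a sample. The labels do not say whether each sample is a separate mouse or a pool, so the spread behind each p-value is that between samples, which may be technical.

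On a B cell, Fcgr2b is the classical IgG receptor. When antigen and IgG bridge it to the B-cell receptor, its inhibitory motif (ITIM) recruits the lipid phosphatase SHIP1, encoded by Inpp5d, and dampens the signal. Fcgr1, Fcgr3 and Fcgr4 encode activating IgG receptors that signal through the common gamma chain, encoded by Fcer1g, and are known from myeloid cells, with Fcgr3 also on NK cells. Fcer2a encodes CD23, the low-affinity IgE receptor and a classical marker of follicular B cells. Fcmr encodes the IgM receptor. Fcrl1 encodes a B-cell surface protein related to Fc receptors, and Fcrla and Fcrlb encode related proteins that stay inside the cell.

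All levels below are log2 of the deposited intensity, and all differences are Sca1-HGAL minus Control on that log2 scale, with the standard error (SE) or the 95% interval of limma, a linear model fitted across all probe sets. The median intensity of an array was between 145.2 and 151.4. The genes of the sorting markers had high levels in both groups, with Cd22 at 12.70 ± 0.13 in Sca1-HGAL and 12.66 ± 0.04 in Control arrays and Ptprc, which encodes B220, at 12.77 in both groups (SD, n = 4 each). Of 6 measured B-cell markers, 0 had an unadjusted limma p under 0.05, but 5 were negative (median -0.05). Their mean log2 level was 13.00 to 13.03 in Sca1-HGAL and 13.05 to 13.09 in Control arrays, so it was slightly lower on all Sca1-HGAL arrays. Among genes of other cell types, 11 of 13 measured macrophage and monocyte genes reached log2 6 in Control arrays. So did 11 of 15 neutrophil genes. That level is a low bar, since 16994 of 21640 probe sets had a mean log2 level of at least 6. The counts thus say little about the share of other cells. Sex appears uneven between the groups, since all Sca1-HGAL arrays had little Xist, the X-inactivation RNA, while Control replicates 2 and 4 had log2 levels of at least 12.17. Sca1-HGAL replicate 1 stood apart in another way. There 71 genes were at least 1 log2 unit above all other arrays, against at most 7 on any other array.

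The promoters of the 2 members that differed most between the groups in units of their error, Fcgr2b and Fcer2a, are shown first, then 60 bases around a shared motif in the 3 activating receptors, for comparison. All are RefSeq sequences of GRCm38.p6, from the strand of the gene. In the first pair, capitals mark GGAA on either strand, the core that ETS factors bind. The Fcgr2b stretch lies at chr1:170976022-170976321 and the Fcer2a stretch at chr8:3694125-3694424, both on the minus strand, and each runs over 300 bases, most of them ahead of the annotated start. The Fcer2a stretch is the first of 3 promoter windows listed for that gene, and the Fcgr3 stretch is from the first of 2.
Fcgr2b: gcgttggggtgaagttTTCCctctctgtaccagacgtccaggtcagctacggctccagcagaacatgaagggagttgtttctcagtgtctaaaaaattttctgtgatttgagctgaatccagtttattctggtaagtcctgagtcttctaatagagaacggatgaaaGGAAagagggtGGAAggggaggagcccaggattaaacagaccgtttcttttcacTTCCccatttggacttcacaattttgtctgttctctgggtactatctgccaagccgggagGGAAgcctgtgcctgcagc
Fcer2a: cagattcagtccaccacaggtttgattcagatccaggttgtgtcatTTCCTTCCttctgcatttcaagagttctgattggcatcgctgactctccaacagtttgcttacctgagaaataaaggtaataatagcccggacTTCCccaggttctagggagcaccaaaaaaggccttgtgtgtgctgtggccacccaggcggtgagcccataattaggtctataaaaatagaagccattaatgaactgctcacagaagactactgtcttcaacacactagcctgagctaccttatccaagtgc
In the activating receptors, capitals mark GAGGAA, read here on the other strand as TTCCTC. This is the PU box, bound by PU.1, an ETS factor of myeloid and B cells. The stretches lie at chr3:96293995-96294054 (minus strand), chr1:171059380-171059439 (minus strand) and chr1:171018874-171018933 (plus strand).
Fcgr1: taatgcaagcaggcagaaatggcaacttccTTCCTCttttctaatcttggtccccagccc
Fcgr3: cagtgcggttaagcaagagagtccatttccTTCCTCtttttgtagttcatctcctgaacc
Fcgr4: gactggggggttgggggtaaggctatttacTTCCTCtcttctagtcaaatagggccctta

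With both strands searched, the PU box was in a promoter of 7 of the 9 members and of 28.3% of all 32851 promoters of the same length. It was in none of the promoter windows listed for Fcgr2b and Fcer2a. By their first base on the strand of the gene, counted from the start, the matches of the activating receptors lay at -55 in Fcgr1, at -22 in Fcgr4 and at -6 in the shown window of Fcgr3. Those of Fcrla and Fcmr lay at -37 and -36. Of the further motifs searched, a STAT6-type motif was in 1 member, in a second promoter of Fcer2a that is not shown, and in 6.95% of all promoters. A general STAT motif was in 1 member and 8.3% of all promoters, an interferon response motif in 2 members and 3.44%, and the octamer of B-cell genes in 0 members and 1.74%. These motifs were chosen after the sequences and values were seen. A match is only a run of letters, and no binding was measured.

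Fcgr2b was higher in Sca1-HGAL B cells. Its log2 levels were 11.76, 11.72, 11.54 and 11.77 in Sca1-HGAL replicates 1 to 4, against 11.36, 11.25, 11.18 and 11.32 in Control replicates 1 to 4. All Sca1-HGAL arrays lay above all Control arrays, with 0.18 log2 units between the nearest arrays of the groups. The lowest of its own group was Sca1-HGAL replicate 3. The difference was 0.42 (SE 0.07, 95% interval 0.26 to 0.58), which is 33.6% more intensity. It did not pass over all probe sets tested (limma adjusted p = 0.119). Of 21640 probe sets, 1 passed (0.00462%). In the order of unadjusted p Fcgr2b was number 30. In bulk samples a different share of a cell type and a different amount of RNA per cell cannot be told apart, here and below.

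Fcer2a, the CD23 gene, was lower in Sca1-HGAL B cells by about the same amount. Its levels were 12.12, 12.09, 12.54 and 12.25 in Sca1-HGAL replicates 1 to 4, against 12.68, 12.59, 12.83 and 12.59 in Control replicates 1 to 4. The groups did not overlap, but only 0.05 log2 units separated Sca1-HGAL replicate 3 from the nearest Control array. The difference was -0.42 (SE 0.10, 95% interval -0.65 to -0.19), or -25.5% of the Control intensity, and did not pass (limma adjusted p = 0.225). In the reference gene table Fcer2a shares 642 bases with Trappc5, a gene of the opposite strand, which had -0.18 (SE 0.06, adjusted p = 0.349). Whether the probes of either gene lie in the shared stretch is not known from the annotation used.

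**Figure D1:**
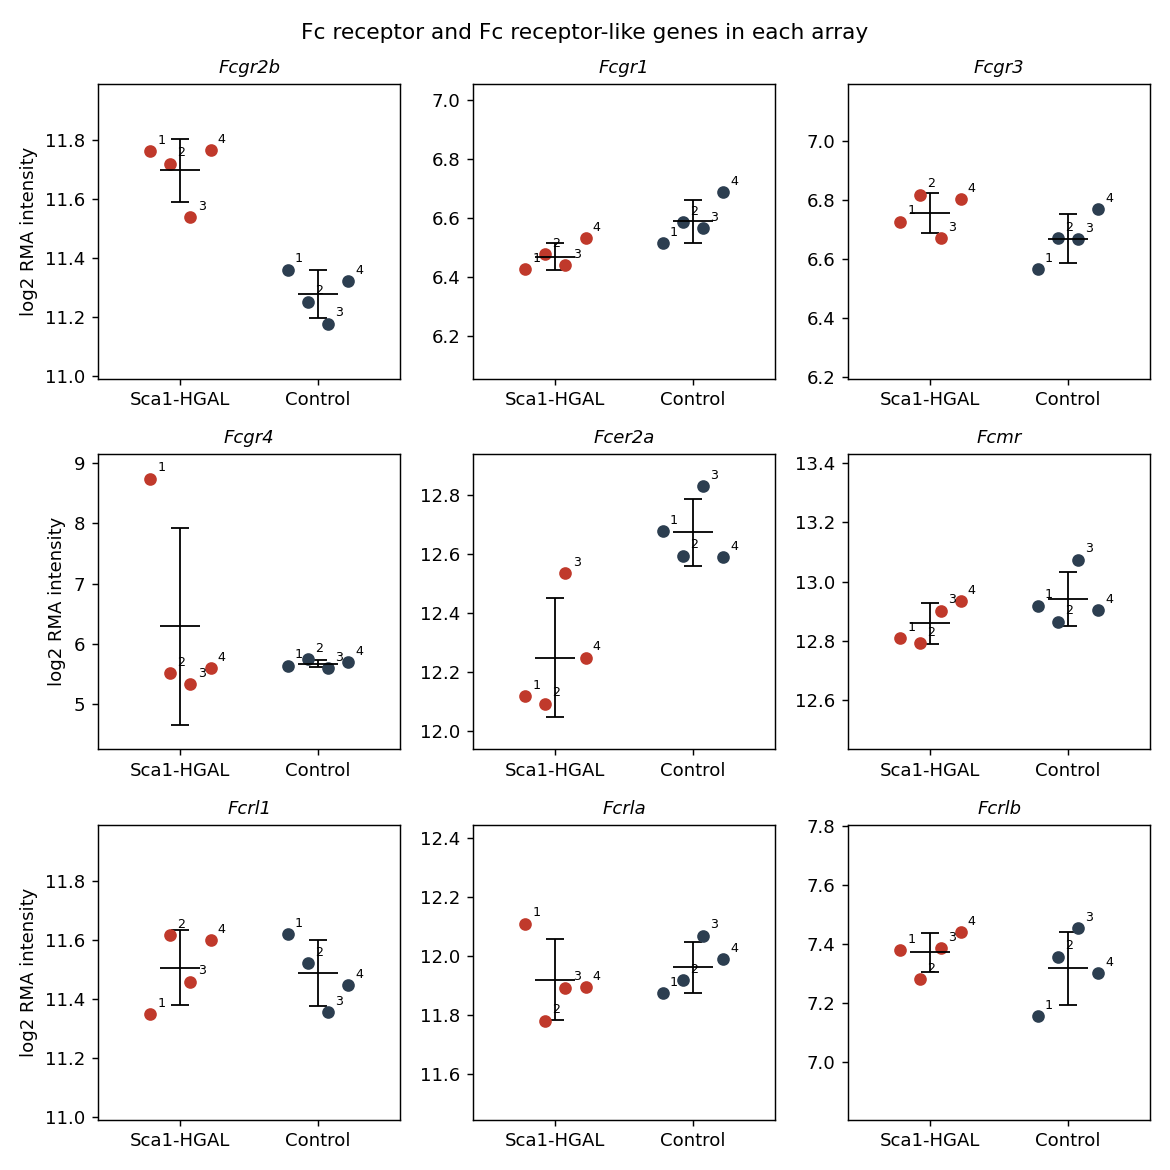
Log2 RMA intensity of each of the 9 genes (vertical axis, own range in each panel, at least 1 log2 unit and wider for Fcgr4) in the 4 Sca1-HGAL and 4 Control arrays, with points numbered by replicate, the mean as a dash and the SD as a bar. The groups are apart for Fcgr2b and Fcer2a, and Sca1-HGAL replicate 1 is at 8.74 for Fcgr4.

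Of the 9 members, 2 had an unadjusted limma p under 0.05, where 9.59% of all probe sets had one. Of these, 1 was higher and 1 lower, against 5.53% higher and 4.06% lower among all probe sets. An adjusted p under 0.05 was reached by 0 members. Fcgr2b and Fcer2a were also the 2 members with groups that did not overlap, where 5.45% of all probe sets had groups apart, 3.15% above and 2.3% below. The median difference of the members was 0.02, against 0.01 over all probe sets tested. The members had been chosen with earlier results of these data known, so these counts describe them and test nothing.

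The activating receptors Fcgr1 and Fcgr3 had low intensities in both groups. Fcgr1, the high-affinity IgG receptor, was at 6.43, 6.48, 6.44 and 6.53 in Sca1-HGAL arrays, against 6.51, 6.59, 6.57 and 6.69 in Control arrays. The groups overlapped in 1 array of each, with a difference of -0.12 (SE 0.06, interval -0.25 to 0.01, limma adjusted p = 0.564). Fcgr3, a low-affinity receptor, was at 6.73, 6.82, 6.67 and 6.80 in Sca1-HGAL arrays, against 6.57, 6.67, 6.67 and 6.77 in Control arrays. Its difference was 0.09 (SE 0.06, interval -0.06 to 0.23, adjusted p = 0.726), with overlapping groups. The coding sequences of Fcgr2b and Fcgr3 are known to be alike in the part outside the cell, and whether the probes tell them apart is not known from the annotation used.

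The inhibitory and the activating receptors can also be set against each other within an array, which takes out the scale of the array. The log2 level of Fcgr2b minus that of Fcgr3 was 4.94 ± 0.07 in Sca1-HGAL and 4.61 ± 0.13 in Control arrays (SD, n = 4 each), a shift of 0.33, and the groups did not overlap. Against Fcgr1 the shift was 0.54, again with groups apart. Against Fcgr4 it was -0.20 with overlapping groups, from values of 3.02 in Sca1-HGAL replicate 1 and 6.18 to 6.22 in the other Sca1-HGAL arrays, against 5.51 to 5.73 in Control arrays. Only the shift can be read, since the levels come from different probes, and no test was made of it. Fcgr1 and Fcgr3 had low intensities and small differences of -0.12 and 0.09. The shifts against them therefore mostly repeat the 0.42 of Fcgr2b itself and say little about activating receptors.

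Fcgr4, which binds IgG2a and IgG2b and is known from neutrophils, monocytes and macrophages, was raised on 1 array alone. Its levels were 8.74, 5.51, 5.33 and 5.59 in Sca1-HGAL replicates 1 to 4, against 5.64, 5.75, 5.60 and 5.69 in Control replicates 1 to 4. Sca1-HGAL replicate 1 thus lay 3.00 log2 units above the highest other array. The other Sca1-HGAL arrays lay below every Control array, but the nearest were at 5.59 and 5.60, and all these levels were dim, under log2 6. That reading sets replicate 1 aside after its value was seen. Over all 8 arrays the difference was 0.62 with an interval from -0.80 to 2.04 (SE 0.64, limma adjusted p = 0.807). Without Sca1-HGAL replicate 1 it was -0.19 (SE 0.08, adjusted p = 0.371). By the size of the gap, Fcgr4 was number 4 of all genes on that array, behind Gnb3, 1810046K07Rik and Cyp11a1, which were named after their values were seen.

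Marker lists of other cell types were read on the same array. Of 15 measured neutrophil genes, 13 had their highest level of all 8 arrays in Sca1-HGAL replicate 1, as had 7 of 8 T cell genes, 2 of 13 macrophage and monocyte genes and 1 of 10 NK cell genes. So had 8 of 12 B-1 and age-associated B cell genes, read further below, and 3 of 12 marginal zone B genes. The share of all genes with their highest level there was not counted. The mean log2 level of the neutrophil list was 7.29 there and 6.23 to 6.82 on the other Sca1-HGAL arrays, against 6.10 to 6.63 on Control arrays. The next highest means of this list were 6.82 in Sca1-HGAL replicate 2 and 6.63 in Control replicate 3, where Fcgr4 was at 5.51 and 5.60. The summed level of the neutrophil list, as log2 of summed intensities, was 10.33 to 11.70 in Sca1-HGAL and 10.16 to 10.81 in Control arrays. That of the macrophage and monocyte list was 11.27 to 11.83 in Sca1-HGAL and 11.29 to 11.76 in Control arrays. Their part in the Fcgr4 level was not tested.

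**Figure D2:**
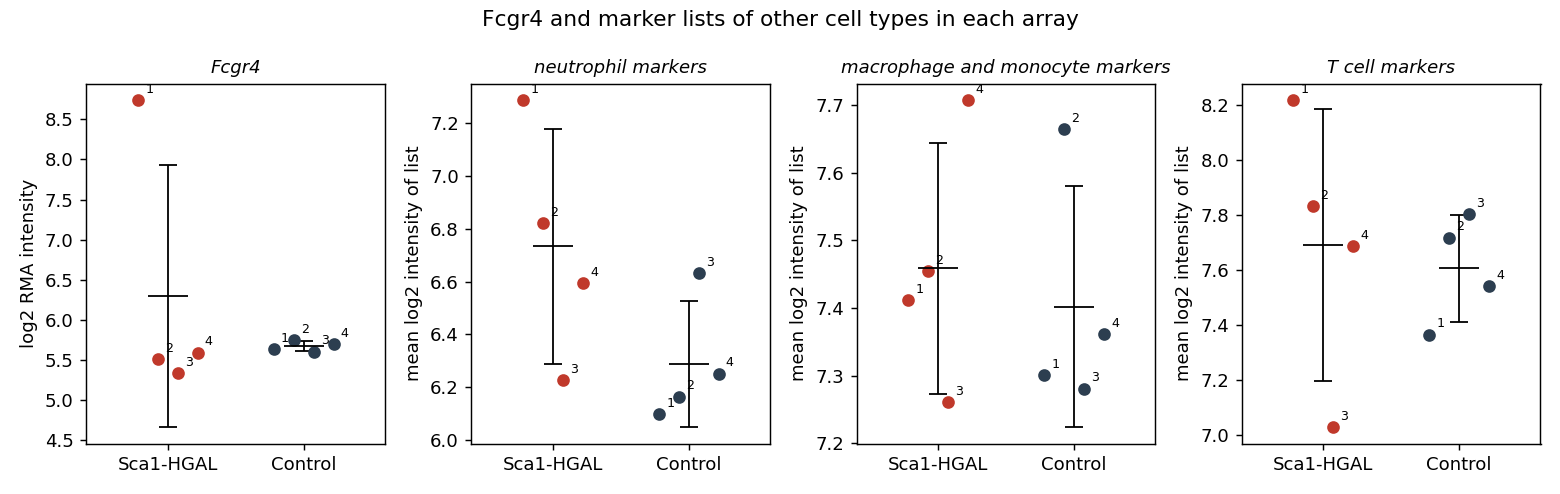
Log2 RMA intensity of Fcgr4 and the mean log2 intensity of 3 marker lists (vertical axes, own range in each panel) in each Sca1-HGAL and Control array, with points numbered by replicate, the mean as a dash and the SD as a bar. Sca1-HGAL replicate 1 is highest for Fcgr4 (8.74) and for the neutrophil (7.29) and T cell (8.22) lists, but not for the macrophage and monocyte list (7.41).

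Fcmr, the IgM receptor gene, was at 12.81, 12.79, 12.90 and 12.93 in Sca1-HGAL arrays, against 12.92, 12.86, 13.07 and 12.90 in Control arrays. The groups overlapped, with a difference of -0.08 (SE 0.07, interval -0.23 to 0.07, limma adjusted p = 0.754). On one side Fcmr neighbours the cytokine genes Il24, Il20 and Il19, and on the other Pigr and Fcamr. Fcamr, a receptor for IgA and IgM, had -0.22 (SE 0.08, adjusted p = 0.41), with all Sca1-HGAL arrays below all Control arrays. Pigr, which carries IgA and IgM across epithelia, had 0.02 (SE 0.09).

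Of the Fc receptor-like members, none was apart between the groups. Fcrl1, which enhances B-cell receptor signals, was at 11.35, 11.62, 11.46 and 11.60 in Sca1-HGAL arrays, against 11.62, 11.52, 11.35 and 11.45 in Control arrays, a difference of 0.02 (SE 0.08, interval -0.16 to 0.20). Fcrla, which binds antibody inside the cell, was at 12.11, 11.78, 11.89 and 11.90 in Sca1-HGAL arrays, against 11.87, 11.92, 12.07 and 11.99 in Control arrays, a difference of -0.04 (SE 0.08, interval -0.22 to 0.14). Both genes varied more within the groups than between them, and in opposite directions. Sca1-HGAL replicate 1 and Control replicate 3 had the lowest Fcrl1 and the highest Fcrla levels of the 8 arrays. Fcrlb was between 7.28 and 7.44 in Sca1-HGAL arrays and between 7.15 and 7.45 in Control arrays, a difference of 0.05 (SE 0.07, interval -0.11 to 0.22). The limma adjusted p was 0.967 for Fcrl1, 0.914 for Fcrla and 0.864 for Fcrlb.

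**Figure D3:**
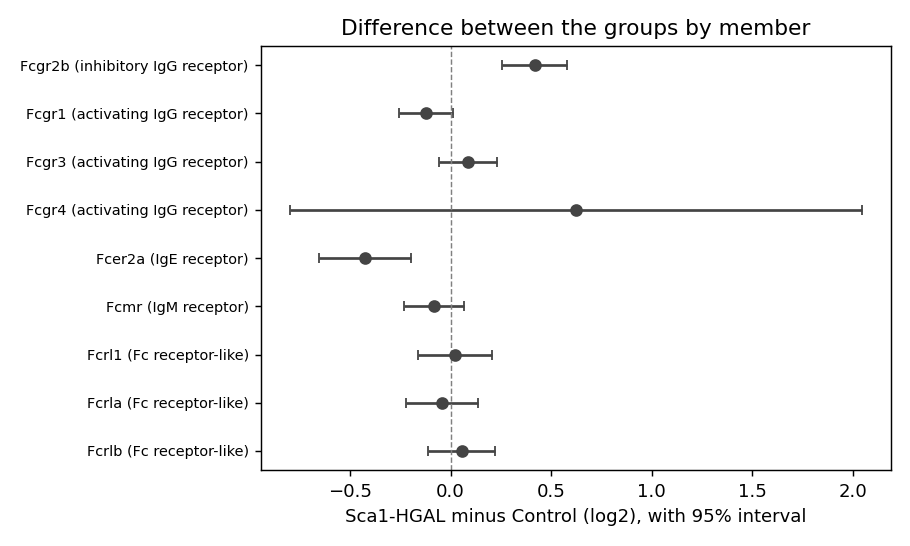
Difference between the groups for each of the 9 members (horizontal axis, Sca1-HGAL minus Control on the log2 scale), with points for the limma estimate and bars for its 95% interval. The intervals of Fcgr2b (0.26 to 0.58) and Fcer2a (-0.65 to -0.19) leave out 0 before adjustment for the number of probe sets tested, and that of Fcgr4 is the widest (-0.80 to 2.04).

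Members of the IgG receptor and Fc receptor-like kinds lie side by side on chromosome 1. In GRCm38.p6 the order is Fcrlb, Fcrla, Fcgr2b (170960558 to 170976071), Fcgr4 and Fcgr3. Within this cluster the difference of 0.42 for Fcgr2b stood between -0.04 for its neighbour Fcrla and 0.62 for Fcgr4, which rests on 1 array. The 3 measured genes on either side, with Gm10522 between the members, were 7 flanking genes, and 7 of them had a positive difference. They were between 0.00 for Cfap126 and 0.31 for Pcp4l1 (SE 0.13, limma adjusted p = 0.483), with 0.16 for Sdhc and 0.15 for Atf6. Of the 7, 1 had an unadjusted limma p under 0.05, where 9.59% of all probe sets had one, and in none were the groups apart. On chromosome 3, Fcrl1 neighbours Fcrl5, a receptor of marginal zone and B-1 cells in mice, which had 0.57 (SE 0.30, adjusted p = 0.587).

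**Figure D4:**
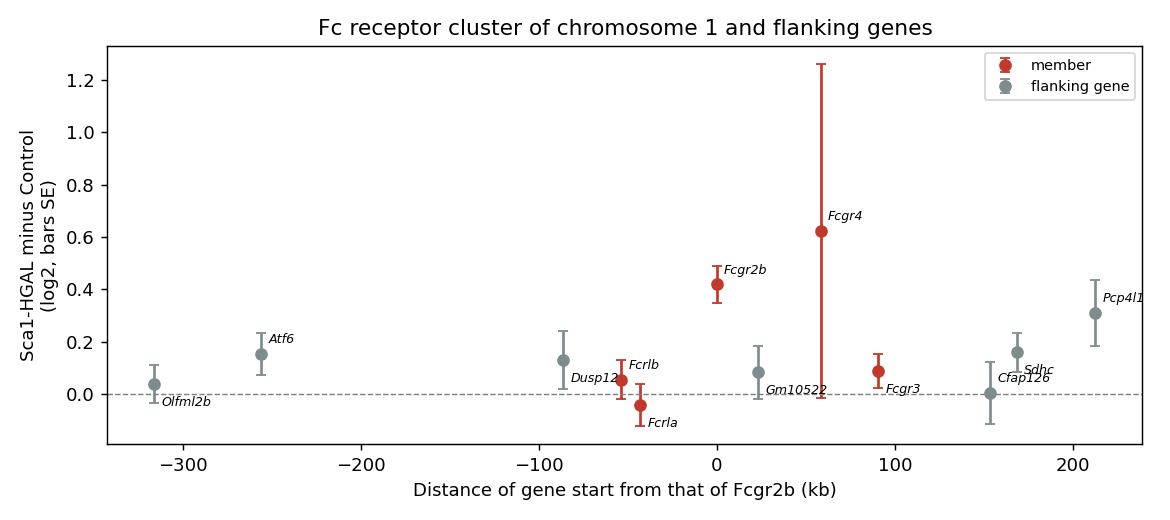
Difference between the groups (vertical axis, Sca1-HGAL minus Control on the log2 scale, bars SE) for the 5 members of the chromosome 1 cluster and 7 flanking genes, by the distance of the gene start from that of Fcgr2b in kb. Fcgr2b is at 0.42 beside Fcrla at -0.04, and the flanking genes are between 0.00 and 0.31.

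The other Fc receptor genes and the partners that carry the signal showed no difference that passed limma over all probe sets. Among 9 other Fc-binding and Fc receptor-related genes, 6 had a positive and 3 a negative difference (median 0.08). Of them 1, Fcamr, had an unadjusted limma p under 0.05, where 9.59% of all probe sets had one. Fcer1g, the chain on which activating receptors depend, ranged from 7.63 to 9.49 in Sca1-HGAL arrays, against 7.91 to 8.51 in Control arrays. Its lowest level was in Sca1-HGAL replicate 3 and its highest in Sca1-HGAL replicate 4, with a difference of 0.46 (SE 0.33, adjusted p = 0.71). Among 10 measured genes of activating signalling, 8 were positive and 0 had an unadjusted p under 0.05 (median 0.06). Lat2, an adaptor, had 0.16 (SE 0.08) and Fyn, a kinase, -0.19 (SE 0.12).

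Over all probe sets, 9.59% had an unadjusted limma p under 0.05, 5.53% of them higher, and 5.45% had groups apart. Among 8 genes of inhibitory Fc receptor signalling, 6 were positive and 2 negative (median 0.02), and 1 had an unadjusted p under 0.05. That gene was Ptpn11, which encodes the phosphatase SHP-2, at 0.18 (SE 0.08, limma adjusted p = 0.52). Inpp5d, the SHIP1 gene through which Fcgr2b acts, was at 11.57 ± 0.08 in Sca1-HGAL and 11.59 ± 0.04 in Control arrays (SD, n = 4 each), a difference of -0.02 (SE 0.06, adjusted p = 0.96), and is named outside the naming rule. Of 9 other ITIM receptors of B cells, 5 were positive and 4 negative (median 0.03), and 2 had an unadjusted p under 0.05, both higher and with groups apart. These were Pirb, a receptor for MHC class I, at 0.46 (SE 0.12, adjusted p = 0.282), and Lilrb4a at 0.64 (SE 0.17, adjusted p = 0.289), both of which myeloid cells also express.

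Of 7 genes around CD23 and the IL-4 axis, 2 were positive and 5 negative (median -0.09). An unadjusted limma p under 0.05 was reached by 2, both lower. Among all probe sets 9.59% reached it, 4.06% lower. Cr2, which encodes CD21, a binding partner of CD23, had -0.28 (SE 0.12, limma adjusted p = 0.494). Itgav, an integrin chain, had -0.24 (SE 0.09, adjusted p = 0.449), and Adam10, which sheds CD23 from the cell surface, -0.09 (SE 0.06, adjusted p = 0.672).

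Fcer2a is a classical marker of follicular B cells, so markers of several B-cell subsets were read beside it and Fcgr2b. Of 12 B-1 and age-associated B cell genes, 12 were positive (median 0.97, from 0.06 to 1.46). Of these, 9 had an unadjusted limma p under 0.05, where 9.59% of all probe sets had one. Groups were apart in 8, where 5.45% of all probe sets had groups apart, 3.15% above. The highest level of all 8 arrays was in Sca1-HGAL replicate 1 for 8 of the 12 genes. This list and the others were chosen with earlier results of these data known, so the counts describe them and test nothing. Tbx21, the T-bet gene, had 0.99 (SE 0.16, adjusted p = 0.111) and Cd80, a costimulatory ligand, had 1.46 (SE 0.28, adjusted p = 0.13). The mean log2 level of this list was 9.46, 9.03, 8.21 and 8.63 in Sca1-HGAL replicates 1 to 4, against 7.90 to 8.10 in Control arrays. Sca1-HGAL replicate 3, with the lowest mean of its group, also had the lowest Fcgr2b and the highest Fcer2a of its group. Markers of other cell types were low on that array too. There 7 of 8 T cell and 6 of 10 NK cell genes had their lowest level of all 8 arrays. The mean log2 level of the T cell list was 7.03 on it and 7.69 to 8.22 on the other Sca1-HGAL arrays, against 7.36 to 7.80 on Control arrays. That of the NK cell list was 5.95 on it and 6.27 to 6.58 on the other Sca1-HGAL arrays, against 6.29 to 6.84 on Control arrays. The neutrophil mean, 6.23, was the lowest of its group as well. Of 12 marginal zone B genes, 11 were negative (median -0.42), and 7 had an unadjusted p under 0.05, with Asb2 at -0.78 and Pik3r4 at -0.54. Their mean was 9.69, 9.46, 9.50 and 9.49 in Sca1-HGAL replicates 1 to 4, against 9.79 to 10.19 in Control arrays, and replicate 3 did not stand out. Of 5 measured follicular B genes besides Fcer2a, 4 were negative (median -0.13), and 1, the homing receptor Ccr7, had an unadjusted p under 0.05, with a difference of -0.41 (SE 0.13, adjusted p = 0.358). The follicular mean was 10.82, 10.99, 11.23 and 11.04 in Sca1-HGAL replicates 1 to 4, against 11.11 to 11.24 in Control arrays. Their part in the Fcgr2b and Fcer2a levels was not tested.

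**Figure D5:**
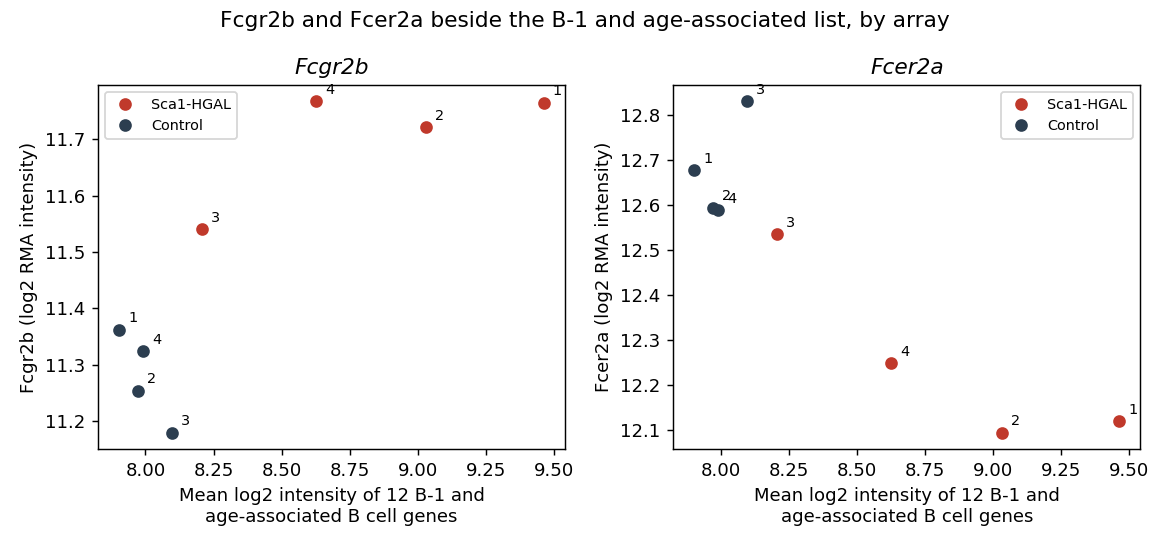
Log2 RMA intensity of Fcgr2b and of Fcer2a (vertical axes) against the mean log2 intensity of 12 B-1 and age-associated B cell genes (horizontal axes) in each Sca1-HGAL and Control array, with points numbered by replicate. Sca1-HGAL replicate 3 lies nearest to the Control arrays, at 8.21 on the horizontal axis with 11.54 for Fcgr2b and 12.54 for Fcer2a.

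Lists of other cells that carry Fc receptors gave a mixed picture. Their counts stand beside the 9.59% of all probe sets with an unadjusted limma p under 0.05. The neutrophil list had 15 of 15 genes positive (median 0.36), and 6 had an unadjusted limma p under 0.05, with Mmp9 at 0.34 and Elane at 0.40. Of the 15, 13 were highest in Sca1-HGAL replicate 1, and 2 had groups apart, where 5.45% of all probe sets did. The list means overlapped, from 6.23 to 7.29 in Sca1-HGAL and from 6.10 to 6.63 in Control arrays. The macrophage and monocyte list had 6 of 13 positive (median -0.01) and 1 at an unadjusted p under 0.05, Adgre1, a surface marker of macrophages, at 1.01 (SE 0.19, adjusted p = 0.122). The NK cell list had 8 of 10 negative (median -0.20), 2 of them at an unadjusted p under 0.05, with Gzma at -0.77. The dendritic cell list had 5 of 10 positive (median -0.03) and 7 at an unadjusted p under 0.05, 3 higher and 4 lower. Itgax, which is also counted in the B-1 and age-associated list, had 0.48, against -0.83 for Ccr9 and -0.34 for Clec9a. The mast cell and basophil list had 6 of 10 positive (median 0.04) and 1 at an unadjusted p under 0.05, Prss34 at 0.15. Fcer1a, the IgE-binding chain of the high-affinity receptor of those cells, was at 5.01 in Sca1-HGAL and 5.02 in Control arrays. The T cell list had 6 of 8 positive (median 0.11) and 0 at an unadjusted p under 0.05. No gene of any of these lists passed over all probe sets.

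The genes with the array pattern most like that of Fcgr2b, by Pearson correlation of log2 levels over the 8 arrays, were 6330549D23Rik, Fkbp1b and Ddhd2 (r = 0.98, 0.98 and 0.97). Their differences were 0.15, 0.10 and 0.35. The mean levels in Sca1-HGAL and Control arrays were 5.50 and 5.35 for 6330549D23Rik, which is dim, under log2 6. They were 6.24 and 6.14 for Fkbp1b and 8.64 and 8.29 for Ddhd2. For Fcer2a they were Gtf2b, Cd53 and Gramd1a (r = 0.99, 0.99 and 0.97), with differences of -0.25, -0.13 and -0.29. These correlations describe the best of 19937 genes over 8 arrays that include the difference between the groups, and with the group means taken out r was between 0.80 and 0.96.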

How the data were processed

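Total RNA of sorted spleen B cells from 4 Sca1-HGAL and 4 Control samples was measured on 1 array each. The titles of the samples give group and replicate number. The authors deposited intensities made with RMA (background correction, normalisation between arrays, probe summary), per the submitters' processing notes. Neither a version nor a build is given in the sources used. Values were linear, and log2 was taken with no pseudocount and no filter. RMA removes changes shared by most genes and shrinks folds of dim probe sets. The 21640 probe sets annotated to 1 gene symbol entered a two-sided limma fit (version 3.58.1, R 4.3.3; lmFit and eBayes without covariates, Benjamini-Hochberg over all of them). A gene of a list was represented by its probe set with the highest mean. Some genes, such as Itgax, Cr2, Fcrl5 and Fcer1g, were counted in more than 1 list.

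The members, the lists and the alternatives were chosen with earlier results of these data known. Named genes were the members, their 3 flanking genes on each side, up to 3 genes of smallest p a list, and the 3 genes most like Fcgr2b and Fcer2a. Outside this rule, Cd22, Ptprc, Fcer1g, Fcer1a, Inpp5d, Gnb3, 1810046K07Rik and Cyp11a1 were named after their values were seen. The fit was tested on simulated data. Some genes of the lists are not reported here. No pair of arrays shared more than 0.0604% of equal values. With 4 arrays a group, precision is low, and the values carry no detection calls. Alternatives were other normalisations, filters, priors, weights, a replicate block, all rows, probe set means, the Xist-high arrays and each array left out.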

Additional observations from a re-analysis of the deposited data

Results flagged for a closer look

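Of 18 groups of 4 arrays checked, 2 for each member, 1 held an array far from its 3 group mates, where chance gives about 1 in 20. This was Fcgr4 in Sca1-HGAL replicate 1, at 8.74, while its group mates lay between 5.33 and 5.59.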

How the results depend on the processing

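Fcgr2b was positive in all 19 alternatives, between 0.39 and 0.47, with an adjusted p from 0.0416 to 0.465, and passed in 1 of them, without Sca1-HGAL replicate 3. Fcer2a was negative in all 19, between -0.52 and -0.37, and passed in 0 (adjusted p 0.0536 to 0.507). Without the 2 Xist-high arrays Fcgr2b had 0.43 and Fcer2a -0.51. Fcgr1, Fcgr3, Fcmr and Fcrlb also kept their signs in all 19. With 1 array left out, Fcgr4 was between -0.19 (without Sca1-HGAL replicate 1) and 0.94, Fcrl1 between -0.024 and 0.072, and Fcrla between -0.11 and 0.0038. Fcrl1 turned negative without Sca1-HGAL replicate 2 or 4 or Control replicate 3, and Fcrla positive without Sca1-HGAL replicate 2. The cause was not tested. Fcgr4 was not tested under the filter on dim probe sets. With 1 array left out, the count of members past the threshold was between 0 and 1, and the count of all probe sets past it between 1 and 40, the 40 without Sca1-HGAL replicate 3, and 2 without Sca1-HGAL replicate 1 or Control replicate 1. The count of probe sets was 12 with array weights, 2 with probe sets averaged per gene, 2 without the Xist-high arrays and 0 without variance sharing, where 1893 had an unadjusted p under 0.05. The replicate block gave 6 probe sets and 0 members, with 0.42 for Fcgr2b (adjusted p = 0.184). The deviations of same-numbered arrays correlated at -0.17, 0.04, -0.13 and -0.04. These values gave no sign that the numbers pair the samples, but they cannot exclude a pairing that affects some genes. Intensities near log2 6 and below limit what Fcgr1, Fcgr3 and Fcgr4 can show.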
